A study of Mus musculus with 53 samples.

Results

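Mitochondrial ribosomal proteins are the protein parts of the mitochondrial ribosome, and the genes that code for them lie in the nucleus. The members described here were the protein-coding genes of the GENCODE M21 annotation whose symbol is Mrps or Mrpl followed by a number and at most one of the letters a, b and c. The rule used names only and no measured value. It found 77 genes among the 37991 gene IDs of the deposited table, or among its 20214 protein-coding genes: 29 with a small subunit name (Mrps) and 48 with a large subunit name (Mrpl). M21 holds 78 genes that fit the rule, and Mrpl33 had no row in the table.

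The series sequenced RNA from mouse neurons, astrocytes and brain tissue to study how neuronal activity and the replacement of histones bear on gene expression. The values analysed here come from 1 group, cortical tissue of C57bl/6 mouse embryos at embryonic stage E16.5, without stimulation. It has 3 libraries, deposited only as their mean, so no value below has an SD, no difference was tested over samples, and every comparison is between genes. The other 50 libraries of the series, in 18 groups, were not analysed here.

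The mitochondrial ribosome translates the few proteins that the mitochondrial genome encodes, all of them subunits of the respiratory chain and ATP synthase. Its small subunit binds the messenger RNA and decodes it, and its large subunit joins the amino acids and sits at the inner membrane. Part of its proteins have counterparts in bacterial ribosomes, while others are specific to mitochondria. Its ribosomal RNAs come from the mitochondrial genome, so the proteins have to be made in the cytosol, imported and assembled onto them. Neurons and their progenitors depend on this translation for oxidative energy supply.

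The deposited unit is RPKM, reads per kilobase of gene and 1 M reads. Steps in the low values give library totals of 51.3, 64.8 and 71.6 M reads, 188 M in all. They also fit a gene length of the whole span from first to last base, introns included. With span, 662 of 730 low values (90.7%) lay on the steps, against 35 of 377 (9.28%) with exon length. The steps were read from the values with span, so exon length had no steps of its own in this comparison. Because span includes introns, a level per kb of exon was also computed for each gene. It is the gene's reads per kb of the union of its exons and per 1 M reads. A further level, per kb of transcript, used the transcript with the longest coding sequence. Both levels divide all reads of a gene by the shorter length. Whether reads in introns were counted is not known, and any such reads would raise both levels. The detected members had from 546 reads (Mrps34) to 16376 reads (Mrps17), which gives counting errors of 4.28% and 0.781%. Since the spread between the 3 libraries is not known, neighbours in any order of levels below cannot be told apart from this alone. In bulk tissue, fewer cells of a type and less RNA per cell cannot be told apart either.

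The tissue label was checked against marker genes. All 8 markers of cortical projection neurons reached 1 RPKM or more, led by Neurod6 at 194 and Neurod2 at 109 RPKM, as did 7 of 7 radial glia markers. Of the interneuron markers 5 of 7 did so, of the microglia markers 1 of 7, of the endothelial markers 1 of 5 and of the oligodendrocyte markers 1 of 5. RPKM divides by the span with introns. Per kb of exon, 7 of 7 interneuron, 6 of 7 microglia, 5 of 5 endothelial and 3 of 5 oligodendrocyte markers reached 1. Of all protein-coding genes 54.1% did so. A low count by RPKM therefore does not mean that a cell type was absent. The oligodendrocyte list was split, with Mag at 0.0651 and Mobp at 0.00095 per kb of exon. It does not settle whether those cells were present. Red blood cell genes were present as well, 4 of 5 at 1 RPKM or more, with Hba-a1 at 53.6 RPKM. No muscle marker (0 of 5) and no hepatocyte marker (0 of 4) reached 1 by either length. Which cells the members' RNA came from was not tested.

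Almost every member was listed above 0: 76 of 77, where 84.8% of all protein-coding genes were. At 1 RPKM or more there were 64 of the 77 members, or 83.1%, against 31.6% of all protein-coding genes. At 10 RPKM or more there were 7 members, against 4.5% of all protein-coding genes. By exon length, 76 members reached a level of 1, against 54.1% of all protein-coding genes, and 32 reached 10, against 20.9%. The members' share was above that of all protein-coding genes at each of these thresholds.

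The median of the 76 detected members was 2.62 RPKM, with quartiles at 1.39 and 4.81, and the median of all detected protein-coding genes was 0.450 RPKM. The lowest detected member, Mrps28, was at 0.0482 RPKM and the highest, Mrpl34, at 24.5 RPKM, a 509-fold range. With exon length the range narrowed to 26.05-fold, from 1.41 to 36.7, around a median of 8.86. The SD of log2 level over the detected members was 1.61 for RPKM and 0.99 per kb of exon. Over all detected protein-coding genes it was 4.21 for RPKM and 3.90 per kb of exon. The members' levels thus lay closer together per kb of exon than in RPKM. As reads per 1 M reads with no length, the members' SD was smaller still, at 0.80. Over all detected protein-coding genes it was 4.26. The cause of these differences in spread was not tested.

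**Figure D1:**
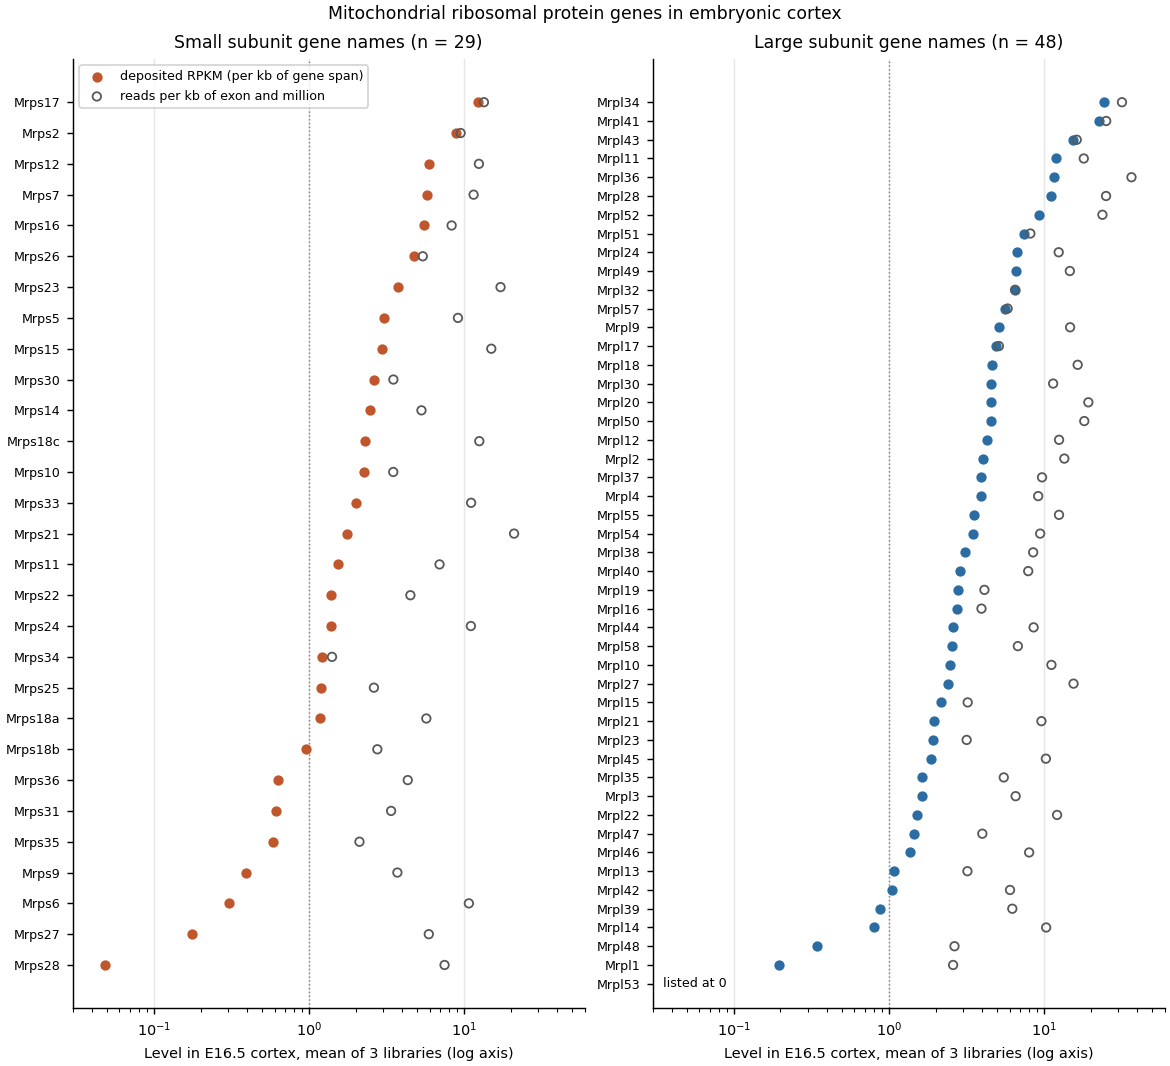
Level of each of the 29 small subunit (left) and 48 large subunit (right) genes in E16.5 cortex, on a log axis; filled points are the deposited RPKM, open circles the level per kb of exon, each from the mean of 3 libraries, and the dotted line marks a level of 1. Filled points run from 0.0482 (Mrps28) to 24.5 (Mrpl34), open circles only from 1.41 to 36.7, and Mrpl53 is listed at 0.

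Large subunit genes had the higher deposited levels. Their median was 3.51 RPKM (47 detected, 0.195 to 24.5) and that of the small subunit genes 1.75 RPKM (29 detected, 0.0482 to 12.4), a ratio of 2.01. At 1 RPKM or more there were 43 of 48 large and 21 of 29 small subunit genes, beside 31.6% of all protein-coding genes. At 10 RPKM or more there were 6 large and 1 small subunit gene. Of the large subunit genes 36 of 47 lay above the small subunit median, and of the small subunit genes 7 of 29 lay above the large subunit median. The ranges overlapped widely: 27 small and 44 large subunit genes lay inside the range of the other subunit.

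The gap between the subunits depended on the length by which reads were divided. By exon length the medians were 9.64 for the large and 6.95 for the small subunit genes, a ratio of 1.39. Per kb of transcript they were 15.4 and 13.4, a ratio of 1.15. Among all pairs of a small and a large subunit gene, the large subunit gene was the higher in 67.9% by RPKM, in 63.5% per kb of exon and in 57.9% per kb of transcript. The detected small subunit genes were the longer in span, with a median of 8886 bases against 7098, and the shorter in transcript, with 1107 against 1316 bases. The direction was therefore the same on all 3 scales, and its size was not.

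**Figure D2:**
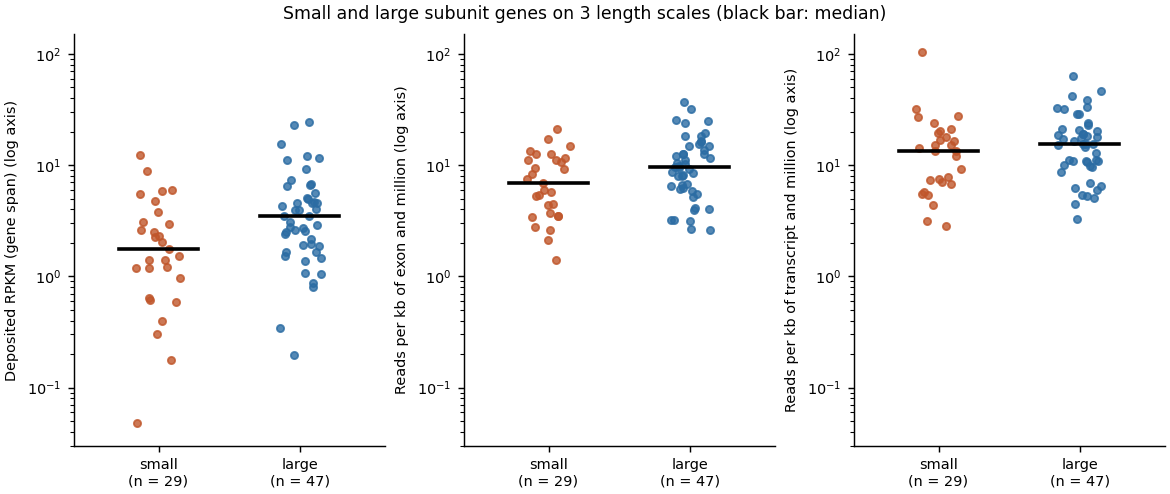
Levels of the 29 small and 47 detected large subunit genes (points, 1 per gene; sideways spread only separates points) as deposited RPKM, per kb of exon and per kb of transcript, on log axes with the median as a black bar. The medians are 1.75 and 3.51 in RPKM, 6.95 and 9.64 per kb of exon, and 13.4 and 15.4 per kb of transcript, and the points of both subunits overlap in each panel.

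The names do not match the ribosome's structure in 3 cases. Mrps30 and Mrps18a carry small subunit names but sit in the large subunit, where they are called mL65 and mL66. Mrps36 is not a core ribosomal protein and is now known as a subunit of the 2-oxoglutarate dehydrogenase complex. Mrps30 was at 2.63 RPKM, Mrps18a at 1.18 RPKM and Mrps36 at 0.635 RPKM. Grouped by structure, the 26 small subunit genes had a median of 1.88 RPKM and the 49 detected large subunit genes one of 3.08 RPKM, which narrows the difference on the log2(RPKM + 0.1) scale from -0.97 (small minus large) to -0.69. Large subunit genes thus had the higher median under both groupings.

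The 6 highest large subunit genes were Mrpl34, Mrpl41, Mrpl43, Mrpl11, Mrpl36 and Mrpl28. Mrpl34 (bL34m), a small protein with a bacterial counterpart, was at 24.5 RPKM from a span of 789 bases. Mrpl41 (mL41), a protein specific to mitochondria, was at 22.8 RPKM from a span of 982 bases. Both are genes of 2 exons, and these are the 2 shortest spans among the detected members. Mrpl43 (mL43) was at 15.3 RPKM, and 33.4% of its exon bases lie in exons of Twnk, the gene of the mitochondrial DNA helicase. Mrpl11 (uL11m), which forms the base of the stalk that binds elongation factors, was at 12.03 RPKM. Mrpl36 (bL36m) was at 11.6 RPKM and Mrpl28 (bL28m) at 11.2 RPKM. The 6 highest of all members, 5 of them large subunit genes, made up 31.7% of the members' summed RPKM.

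The highest small subunit genes were lower than these, apart from 1. Mrps17 (uS17m), which binds the small subunit's ribosomal RNA, was at 12.4 RPKM, the fourth highest of all members. Mrps2 (uS2m) followed at 8.92 RPKM. Mrps12 (uS12m), which lies at the decoding centre, was at 5.96 RPKM, and Mrps7 (uS7m), a protein of the subunit's head, was at 5.81 RPKM. Mrps16 (bS16m) was at 5.53 RPKM and Mrps26 (mS26), a mitochondria-specific protein, at 4.77 RPKM. Among the top 12 members by RPKM, 10 were large subunit genes.

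At the low end stood genes with long introns. Mrps28 (bS1m) spans 121773 bases, of which 783 are exon, and was at 0.0482 RPKM but at 7.49 per kb of exon. Mrps27 (mS27), an RNA-binding protein with pentatricopeptide repeats, was at 0.175 RPKM and 5.93 per kb of exon. Mrps6 (bS6m) was at 0.305 RPKM and 10.8 per kb of exon. Mrps9 (uS9m), Mrps35 (mS35) and Mrps31 (mS31) were at 0.394, 0.585 and 0.609 RPKM. Among all members, Mrps28, Mrps27 and Mrps6 thus ranked 76, 75 and 73 by RPKM and 45, 52 and 30 per kb of exon.

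The lowest detected large subunit genes were Mrpl1, Mrpl48, Mrpl14, Mrpl39 and Mrpl42. Mrpl1 (uL1m), the protein of the mobile stalk next to the exit site for transfer RNA, was at 0.195 RPKM. Mrpl48 (mL48) was at 0.345 RPKM. Mrpl14 (uL14m), at the face of the large subunit where the assembly factor Malsu1 binds, was at 0.806 RPKM, Mrpl39 (mL39) at 0.872 RPKM and Mrpl42 (mL42) at 1.05 RPKM. Mrpl1 and Mrpl48 were low by both lengths, at 2.60 and 2.65 per kb of exon. Around the threshold of 1 RPKM, the nearest members inside were Mrpl42 and Mrpl13, at 1.05 and 1.08, and the nearest outside Mrps18b and Mrpl39, at 0.960 and 0.872.

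Mrpl53 (mL53), a mitochondria-specific protein of the large subunit, was the 1 member listed at 0. Its span of 900 bases lies wholly inside that of Gm42688, a gene model on the same strand at 1.12 RPKM. Exons of overlapping genes cover 88.0% of the exon bases of Mrpl53. A count of 0 would allow up to 0.0178 RPKM (3 reads) if all its reads had been counted for it. The value is given as listed, and the part that the overlapping gene has in it was not tested. Mrps34 (mS34) had the fewest reads of the detected members and 1.22 RPKM. It also has 77.8% of its exon bases under exons of other genes, Mapk8ip3 at 5.24 RPKM and Nme3, listed at 0. Of all members 41 overlapped another gene and 36 did not; the median of the 40 detected ones with an overlap was 2.25 RPKM and that of the 36 without was 3.52 RPKM. Whether the overlap bears on that difference was not tested.

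Span and deposited level went together closely among the members. Spearman's rho between them was -0.81 over 76 detected members, as a description, since RPKM is itself divided by span. It was -0.23 over 17140 detected protein-coding genes. For levels per kb of exon, rho with span was -0.51 for the members and 0.07 for the protein-coding genes. The 38 detected members in the shorter part of the spans had a median of 4.85 RPKM and the 38 in the longer part 1.48 RPKM. The members are compact genes: their median span was 7894 bases, against 18716.5 bases for all protein-coding genes.

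**Figure D3:**
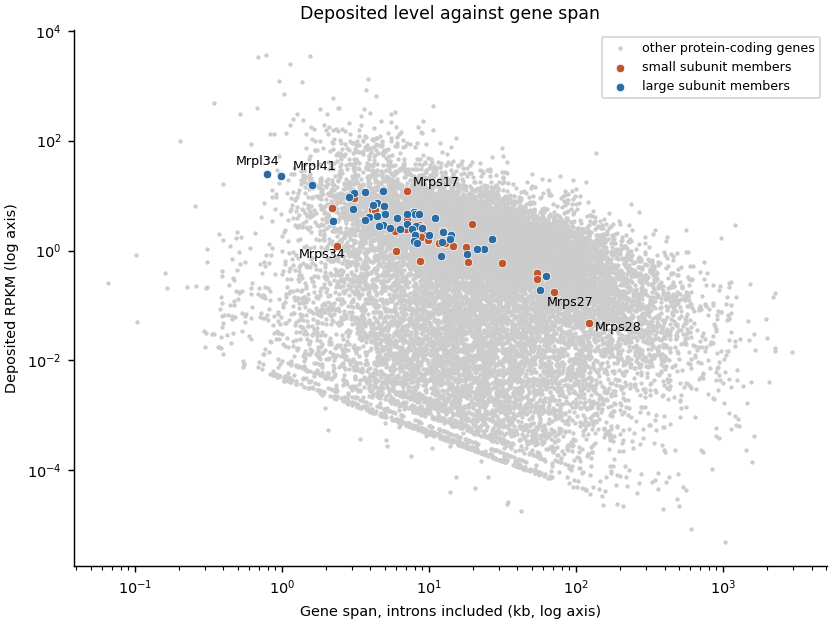
Deposited RPKM against gene span with introns (both log axes) for the detected small subunit members, the detected large subunit members and the other detected protein-coding genes (grey). The members fall along a line from Mrpl34 and Mrpl41 at the upper left to Mrps27 and Mrps28 at the lower right (rho -0.81 for 76 members, -0.23 for 17140 protein-coding genes), with Mrps34 below it.

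The order of members therefore changed when exon length was used, with a rho of 0.64 between both orders over the members and of 0.92 over all detected protein-coding genes. Mrps21 (bS21m) gained 45 places, from 1.75 RPKM to 21.04 per kb of exon, the highest of the small subunit. Mrps6 gained 43 places, Mrpl14 36, and Mrps28 and Mrpl22 31 each. Mrpl17 (bL17m), next to the exit of the peptide tunnel, fell by 39 places, to 5.12 per kb of exon. Mrpl57 (mL63) fell by 37 places, Mrpl32 and Mrps26 by 36 each, and Mrpl51 (mL51) by 32. In the gainers exons make up a small share of the span, and for Mrpl32 the annotated exons together cover the whole span of 4982 bases. Any reads counted in introns would raise the gainers' levels per kb of exon, and their part in these gains was not tested.

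Per kb of exon the highest large subunit genes were Mrpl36 at 36.7, Mrpl34 at 31.9 and Mrpl41 at 25.2, and the highest small subunit genes Mrps21 at 21.04, Mrps23 (mS23) at 17.2 and Mrps15 (uS15m) at 15.0. The lowest were Mrps34 at 1.41, Mrps35 at 2.12 and Mrps25 (mS25) at 2.62 in the small subunit. In the large subunit they were Mrpl1 at 2.60, Mrpl48 at 2.65 and Mrpl23 (uL23m, at the tunnel exit) at 3.17. Of these lowest genes, Mrps34 and Mrps25 have 77.8% and 69.8% of their exon bases under exons of other genes. Mrpl34, Mrpl41 and Mrpl36 were thus among the 6 highest members by both lengths. Exon length depends on the annotation: a span within 10% of M21's was found in RefSeq for 52 members (18 small, 34 large) and not for 25, Mrps17 among the latter. Mrps17 was at 13.4 per kb of exon and, at 105 per kb of transcript, the highest member on that scale.

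Mrps18a, Mrps18b and Mrps18c are 3 related genes whose proteins occupy different places in the ribosome. Mrps18c codes for bS18m, the protein at the bacterial position in the small subunit, Mrps18b for mS40 and Mrps18a for mL66. In RPKM, Mrps18c was at 2.31, Mrps18a at 1.18 and Mrps18b at 0.960. By exon length they were at 12.6, 5.72 and 2.76, and per kb of transcript at 21.2, 23.9 and 5.35. Mrps18b was the lowest of the 3 on each scale, while Mrps18a and Mrps18c changed places per kb of transcript.

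Members with a bacterial counterpart and members specific to mitochondria had near medians by RPKM, at 2.78 (45 genes) and 2.57 (30 detected of 31). The difference of the medians of log2(RPKM + 0.1), bacterial-type minus mitochondria-specific, was 0.11, and it was 0.55 per kb of exon and 0.66 per kb of transcript. Per kb of exon the medians were 10.8 and 7.35. By structural subunit, the 16 bacterial-type small subunit genes had a median of 10.1 per kb of exon and the 10 mitochondria-specific ones 3.95. In the large subunit the medians were 11.2 for 29 bacterial-type genes and 8.35 for 20 detected mitochondria-specific ones. Bacterial-type genes therefore had the higher median in both subunits per kb of exon. As reads per 1 M reads with no length, the medians lay closer together. Bacterial-type and mitochondria-specific genes were then at 19.4 and 17.6 in the small subunit and at 23.0 and 22.3 in the large subunit. Of the mitochondria-specific small subunit genes, Mrps34, Mrps25, Mrps18b and Mrps27 have 77.8%, 69.8%, 30.5% and 24.2% of exon bases under exons of other genes. Among the bacterial-type small subunit genes the highest such share was 23.2%, in Mrps18c. Whether this overlap bears on the medians was not tested.

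Subunits of the ribosome whose genes have other names fell within the members' range. Chchd1 (mS37) was at 21.2 RPKM and Aurkaip1 (mS38), which also binds the Aurora A kinase, at 13.3 RPKM, both above every small subunit member. Dap3 (mS29), a GTP-binding protein first described in cell death, was at 2.31 RPKM, and Ptcd3 (mS39), a pentatricopeptide repeat protein, at 2.08 RPKM. Gadd45gip1 (mL64) was at 2.00 RPKM. Adding these 5 to the members moved the small subunit median to 2.08 RPKM and the difference from the large subunit to -0.64 on the log2 scale.

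The factors that build, feed and run the mitochondrial ribosome were lower by median RPKM than its proteins. Of 26 assembly factors 18 reached 1 RPKM or more, with a median of 1.36; the highest were the RNA helicase Ddx28 at 6.16, Ngrn at 6.01 and the RNA helicase Dhx30 at 4.97, and the lowest the methyltransferase Mettl15 at 0.0177. Of 14 translation factors 5 did so, with a median of 0.808; the elongation factor Tufm stood at 14.6, the membrane insertase Oxa1l at 5.68 and the release factor Mtrf1 at 0.196. Of 17 mitochondrial aminoacyl-tRNA synthetases, which charge transfer RNAs, 8 did so, with a median of 0.905, from Fars2 at 0.0265 to Lars2 at 8.55. Of 11 genes of mitochondrial DNA maintenance and transcription 8 did so, with a median of 1.23, led by Twnk at 5.35, Tfam at 3.19 and the mitochondrial RNA polymerase Polrmt at 3.15, with the polymerase subunit Polg2 lowest at 0.523. All these values are RPKM, and each list is set beside 31.6% of all protein-coding genes. In the same order of lists, the medians per kb of exon were 4.20, 4.64, 3.86 and 5.16, below the members' 8.86. As reads per 1 M reads with no length they were 14.2, 23.8, 19.8 and 17.7, against 21.5 for the members. The translation factors were thus not lower on that scale.

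The complexes around the mitochondrial ribosome gave a scale for its own level. Nuclear-encoded subunits of complex I, the first enzyme of the respiratory chain, had a median of 3.24 RPKM, with 35 of 36 at 1 or more. Ndufb11 at 22.4, Ndufb10 at 18.2 and Ndufa2 at 15.3 RPKM were highest and Ndufs4 at 0.424 RPKM was lowest. By exon length the complex I median was 20.5 per kb, where the members' was 8.86. The 75 cytosolic ribosomal protein genes ran from 9.91 RPKM (Rpl11) to 301 RPKM (Rplp1) with a median of 73.9, and per kb of exon their median was 131. Their SD of log2 RPKM was 0.90, against 1.61 for the members, while per kb of exon the SDs were 0.95 and 0.99. The members together held 0.387% of all summed RPKM and the cytosolic ribosomal proteins 8.33%. Of the reads summed over the 32919 gene IDs matched to M21 they held 0.209% and 2.80%. Reads from the many pseudogene copies of cytosolic ribosomal proteins may be counted with either, so those levels are less certain.

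The RNAs made inside the mitochondrion were on another level. The 2 mitochondrial ribosomal RNAs, mt-Rnr2 and mt-Rnr1, were at 165 and 144 RPKM. Of the 13 mitochondrially encoded proteins 12 reached 10 RPKM or more, with a median of 697 and mt-Co3 highest at 3694 RPKM. The exception, mt-Nd4l, whose end overlaps mt-Nd4, was at 0.0348 RPKM. How ribosomal RNA was treated when the libraries were made is not stated in the labels, so the levels of mt-Rnr1 and mt-Rnr2 may not be those of the tissue.

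**Figure D4:**
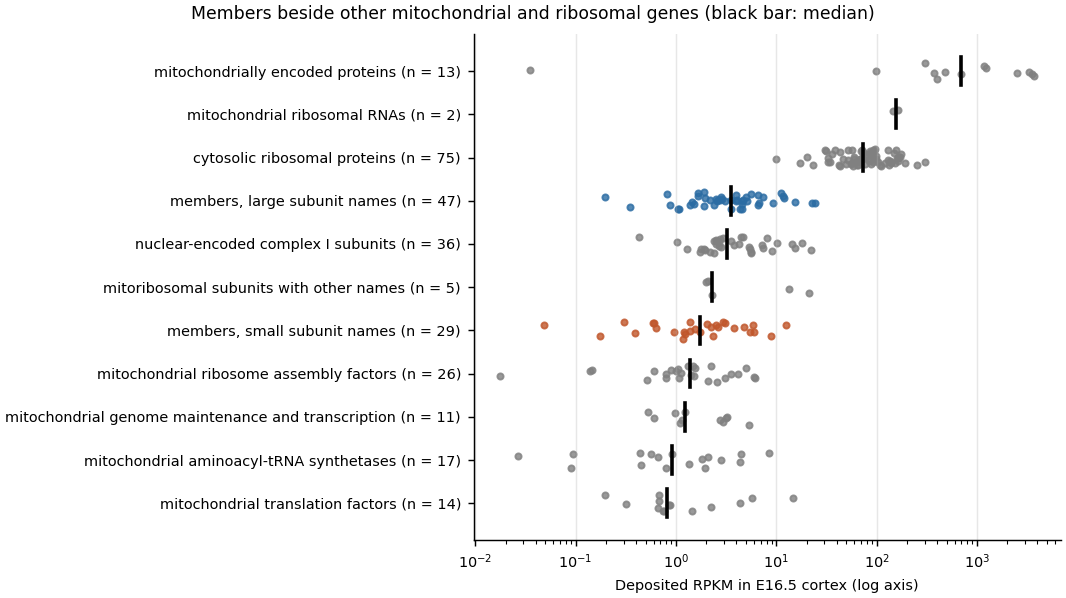
Deposited RPKM of detected genes (points, log axis) in the small and large subunit members and in 9 other lists, ordered by median (black bar). The members' medians of 1.75 and 3.51 lie above those of assembly factors (1.36), DNA maintenance and transcription (1.23), tRNA synthetases (0.905) and translation factors (0.808), and below those of cytosolic ribosomal proteins (73.9) and mitochondrially encoded proteins (697).

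The members' start sites were described from RefSeq windows of 300 bases (250 before to 50 after the start, build GRCm38.p6), which matched 68 of the 77. Searched on both strands were the core of the NRF1 motif, GCATGCGC, the ETS motif CCGGAAG, which GABPA (NRF2) and other ETS factors bind, and the YY1 motif AAGATGGC. NRF1, GABPA and YY1 are known regulators of nuclear genes for mitochondria. The NRF1 core overlaps its own reverse complement, so that 1 stretch can hold a match on each strand. Some genes have several windows, and a gene was counted where any of them held a match. The ETS motif was found in 25 members (36.8%). The shares were 9.93% of all 27025 genes with a window and 24.4% of protein-coding genes at 1 RPKM or more. The YY1 motif was found in 12 (17.6%), against 3.19% and 6.77%. The NRF1 core was found in 7 (10.3%), against 3.05% and 7.30%. These were 1 of 26 small (3.85%) and 6 of 42 large subunit genes (14.3%) with a window. At least 1 of the 3 motifs was found in 37 members (54.4%), against 14.9% and 34.7%. It was found in 56.4% of the cytosolic ribosomal protein genes and 43.8% of the complex I genes with a window, so this share is not particular to the members.

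Of the 30 ETS matches 27 (90%) lay from 100 bases before to 50 bases after the start, where 73.0% of ETS matches in all windows lay. For YY1 it was 9 of 12 matches (75%), against 62.2%. For the NRF1 core it was 9 of 13 (69.2%), against 71.5%. CpG counts were averaged over the windows of a gene. Their median was 21 for the members, against 7 for all genes with a window and 22 for protein-coding genes at 1 RPKM or more. Base composition thus differs from that of all genes as well. By subunit, 14 of 26 small and 23 of 42 large subunit genes with a window held at least 1 motif. Detected members with a match had a median of 9.68 per kb of exon and those without one 9.51. For each motif taken alone the members with it had the lower median per kb of exon: 6.51 against 9.68 for the NRF1 core (7 and 60 members), 8.34 against 9.64 for YY1 (12 and 55) and 8.98 against 9.72 for ETS (24 and 43). Of the complex I genes with a window, 12.5% held the ETS motif and 21.9% the YY1 motif. Of the cytosolic ribosomal protein genes with a window, 41.8% held the ETS motif. A match is a description of the letters, not of binding.

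These windows show where the motifs lie, from 120 bases before to 30 bases after the RefSeq start, with matches in capitals. Mrpl32, on the minus strand at chr13:14613008-14613157, is shown for its repeated NRF1 cores, 4 of the 13 matches in all members. Mrpl34, plus strand at chr8:71464806-71464955, and Mrpl36, plus strand at chr13:73330889-73331038, are shown as the highest members by RPKM and per kb of exon. Mrps11, plus strand at chr7:78783011-78783160, starts head to head with Mrpl46. Mrps18a, plus strand at chr17:46110884-46111033, holds an ETS and a YY1 match close together. All are read 5′ to 3′ on the gene's strand.
Mrpl32: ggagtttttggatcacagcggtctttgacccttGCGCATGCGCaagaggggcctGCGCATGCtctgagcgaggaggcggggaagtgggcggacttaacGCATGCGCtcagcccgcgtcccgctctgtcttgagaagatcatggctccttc
Mrpl34: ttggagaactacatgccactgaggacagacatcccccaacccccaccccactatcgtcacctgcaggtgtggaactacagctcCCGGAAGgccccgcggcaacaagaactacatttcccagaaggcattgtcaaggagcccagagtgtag
Mrpl36: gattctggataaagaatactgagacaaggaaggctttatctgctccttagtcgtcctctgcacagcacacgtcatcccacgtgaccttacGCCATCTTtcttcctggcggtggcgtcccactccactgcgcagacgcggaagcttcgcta
Mrps11: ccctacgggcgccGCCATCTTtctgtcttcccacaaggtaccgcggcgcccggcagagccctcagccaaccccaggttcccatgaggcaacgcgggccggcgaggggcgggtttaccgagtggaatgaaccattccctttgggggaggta
Mrps18a: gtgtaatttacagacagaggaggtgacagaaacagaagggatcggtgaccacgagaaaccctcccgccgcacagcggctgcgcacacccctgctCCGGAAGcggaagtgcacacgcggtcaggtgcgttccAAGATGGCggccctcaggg

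In Mrpl34 the ETS match begins at position -37 (counted from 0 at the start), and in Mrps18a at -26. The YY1 match of Mrps18a begins at 11, just after the start, and that of Mrpl36 at -30 on the other strand. In Mrpl32 the NRF1 cores begin at -87, -85, -66 and -22, the first pair overlapping. The 300-base windows of Mrpl34 and Mrpl36, the 2 highest members per kb of exon, hold 1 match each, and that of Mrpl41, the second highest by RPKM, holds 0. Mrpl32, at 6.51 RPKM and 6.51 per kb of exon, holds the most NRF1 cores of the members.

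Many members start next to a gene on the opposite strand. A protein-coding neighbour with its start within 1000 bases, head to head, was found for 33 of 77 members (42.9%), against 11.4% of all protein-coding genes and 18.4% of those at 1 RPKM or more. Among large subunit genes it was 24 of 48 (50%) and among small subunit genes 9 of 29 (31.0%). In the 31 pairs with a gene that is no member the median distance, regardless of sign, was 126 bases, and 21 pairs had their starts within 200 bases. The member was the higher of the pair in 18 of the 30 with a value for both per kb of exon, and in 22 by RPKM.

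Some partners work in the same organelle. Mrpl46 (mL46) and Mrps11 (uS11m), the 1 pair of 2 members, had a start distance of -412 bases (negative where the genes overlap) and stood at 1.37 and 1.53 RPKM, or 8.03 and 6.95 per kb of exon. Mrps12 at 5.96 RPKM is paired with Sars2, the mitochondrial seryl-tRNA synthetase, at 0.802 RPKM. Mrpl43 at 15.3 RPKM is paired with Twnk at 5.35 RPKM. Mrpl36 at 36.7 per kb of exon is paired with the complex I gene Ndufs6 at 24.4, and Mrpl47 (uL29m) at 4.01 with the complex I gene Ndufb5 at 7.91. Mrpl49 (mL49) at 14.7 per kb of exon is paired with Fau, which codes for a cytosolic ribosomal protein, at 170. The level of a member and its partner thus differed several times over in some of these pairs and little in the Mrpl46 and Mrps11 pair. The size of the difference depended on the scale. Mrpl43 and Twnk were at 16.3 and 9.47 per kb of exon, and Mrpl36 and Ndufs6 at 11.6 and 2.51 RPKM. The strand setting of the counting is not known here; without strand, reads from overlapping partners cannot be told apart.

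**Figure D5:**
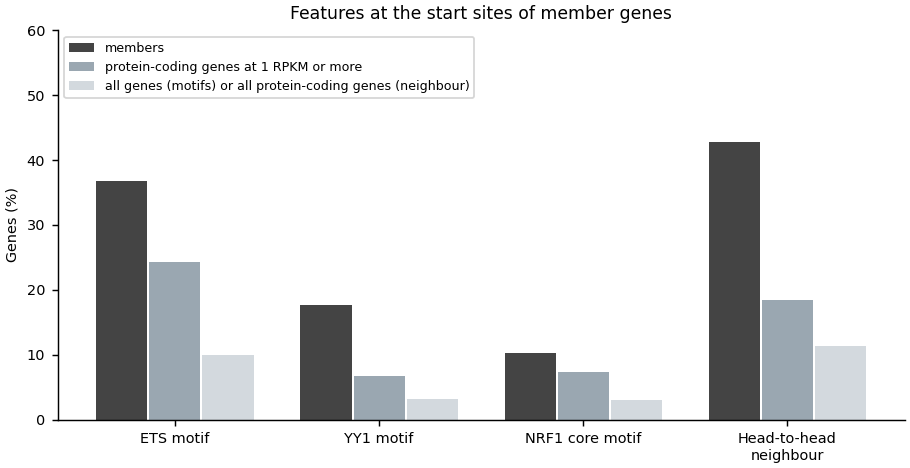
Share of genes (%) with each motif in the RefSeq window around the start, and with a head-to-head protein-coding neighbour within 1000 bases, for the members (dark), protein-coding genes at 1 RPKM or more (middle) and all genes (light). The members' bars are the tallest in each group, at 36.8% for ETS, 17.6% for YY1, 10.3% for the NRF1 core and 42.9% for a neighbour. In the same order, protein-coding genes at 1 RPKM or more were at 24.4%, 6.77%, 7.30% and 18.4%. The NRF1 core share rests on 7 of 68 members with a window and is near that of those genes.

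The members are spread over 17 chromosomes, with 11 on chromosome 11, 8 on chromosome 17 and 7 on chromosome 6. Near-identical copies could take reads from them: 20 members have 27 pseudogene copies with at least 95% identity over at least 200 bases. Of these copies 17 had a row in the table, and the highest, Gm15946, a copy of Mrps18c, was at 0.586 RPKM. How reads that fit both gene and copy were counted is not known here, so the levels of those 20 members are uncertain to that degree.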

How the data were processed

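The authors deposited 1 column of RPKM values for embryonic cortex, the mean of 3 libraries. Per the submitters' processing notes, DESeq 1.16.0, HTSeq 0.6.0, Cuffdiff 2.0.2, TopHat2 2.0.9 and Bowtie2 2.1.0 were used on mm9 (NCBIM37). The tool behind the values, the strand setting and the treatment of reads with several matches are not stated there. Per the labels' protocols, libraries followed the TruSeq protocol. No separate values per library were used, so nothing was tested.

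Gene IDs were matched to GENCODE M21 for symbols, types and lengths (32919 of 37991 IDs). M21 is on a later build than the authors' files, so lengths may differ from theirs and no coordinates of the files are given. Library depth was read from the steps in low values (tolerance 0.5%), a method tested on simulated data. Reads were RPKM times span times depth. Medians were taken over genes above 0, and differences on log2(RPKM + 0.1). Start windows are from RefSeq, GRCm38.p6. Counting errors cover counting only. Analysis used Python 3.11.15 and pandas 2.3.3.

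The members, lists and comparisons were chosen with earlier results of these data known. Values are given for the 6 highest and 6 lowest members of each subunit by RPKM, the 3 highest and lowest of each per kb of exon, the 5 largest gains and losses of places, members at 0, Mrps18a to Mrps18c, Mrps30, Mrps36, subunits with other names, and the ends of each other list. Other examples, among them gene pairs, were chosen after their values were seen. Alternatives included other lengths, pseudocounts, filters and groupings.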

Additional observations from a re-analysis of the deposited data

How the results depend on the processing

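Large subunit genes had the higher median under every alternative run, and no direction reversed. In the lists that follow, the values are the median of all members, of small and of large subunit genes and the small minus large difference of median log2 levels, set against 2.62, 1.75, 3.51 and -0.97 as reported. Per kb of exon they were 8.86, 6.95, 9.64 and -0.46. As reads per 1 M reads with no length they were 21.5, 18.0, 22.5 and -0.32. Per kb of transcript, an alternative chosen after seeing the data, they were 15.1, 13.4, 15.4 and -0.20. With only members at 1 RPKM or more they were 3.07, 2.49, 3.94 and -0.64. For 52 members with spans that match RefSeq, also chosen after seeing the data, they were 2.31, 1.29, 2.88 and -1.10. For 36 members with no overlapping gene, likewise chosen later, they were 3.52, 2.72, 3.94 and -0.52. A pseudocount of 1 gave a difference of -0.71. Keeping Mrpl53 at 0 gave a large subunit median of 3.298 and a difference of -0.87. The mean of log2 values gave 1.67 for small and 3.302 for large subunit genes. Grouping by structure gave 1.88, 3.08 and -0.69, adding subunits with other names 2.08, 3.298 and -0.64, and leaving out the highest member of each subunit 1.64 and 3.298. The number of members at or above the threshold was 64; it was 18 at 5 RPKM, 40 of the 52 and 31 of the 36. The bacterial-type minus mitochondria-specific difference was 0.11, 0.55 per kb of exon and 0.66 per kb of transcript, both chosen after seeing the data. The cause of these moves was not tested. Some alternatives also hold fewer genes, and the part of that was not tested either. No paired analysis was possible because only 1 mean column was used. Depth gives counting errors of 0.781% to 4.28% for detected members, and the spread between libraries is not known.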
